A study of Mus musculus with 6 samples.

Results

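The circadian clock genes described here are 10 genes of the molecular clock, chosen by symbol: Per1, Per2, Per3, Cry1, Cry2, Arntl (also called Bmal1), Clock, Nr1d1, Nr1d2 and Dbp. Each symbol matched 1 Ensembl identifier among the 29616 genes of the deposited table, and 10 of 10 were among the 17442 genes tested. RNA sequencing compared 3 libraries from control C57BL/6 mice with 3 libraries from C57BL/6 mice given dexamethasone, a synthetic glucocorticoid. C57BL/6 is the spelling of the labels, and the study's methods name its wild-type mice as C57BL/6J. Treatment began at 8 weeks of age and lasted 4 weeks, at a daily dose of 0.08 µg/g. The study describes its control animals as saline-treated in some places and as non-treated in others. The labels call the material bone cells, and the study's text describes cells positive for Osteocalcin taken from bones cleared of marrow. Whether a library came from 1 mouse or from several, and the clock time at which the mice were killed, are not given in the sources used here. The depth was 72596611 to 89910728 reads per library.

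The circadian clock is a feedback loop of transcription and translation that runs in most cells of the body. CLOCK and BMAL1 bind E-box sequences and switch on the Per and Cry genes, whose proteins return to the nucleus and repress that activity, while REV-ERB and ROR nuclear receptors act on Bmal1 in opposite directions. Glucocorticoids are a known time signal for clocks in peripheral tissues, and bone cells are among the cells that hold such a clock. Transcripts of several of these genes rise and fall over the day, so a single time of collection shows 1 point of that cycle. Whether both groups were collected at the same clock time is not given in the sources used here. A difference in clock time and the treatment therefore cannot be told apart.

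Values below are normalized counts, which are reads per gene divided by a size factor for the library. A gene is said to rise or fall where its adjusted p from limma was under 0.05, and to be differentially expressed where its log2 fold change was also at least 1 in either direction. Of the 10 clock genes, 1 was differentially expressed and higher with dexamethasone (Per1), beside 11.7% of all tested genes. None of the 10 was differentially expressed and lower in limma, edgeR or DESeq2, beside 10.6% of all tested genes, while 4 were lower at an unadjusted limma p under 0.05. Dbp reached that call in 2 alternative fits, with all libraries scaled to the same total (-1.05) and without dexamethasone replicate 1 (-1.01). At an adjusted p under 0.05 alone, 6 rose, beside 37.2% of all tested genes, and 4 fell, beside 35.2%. The libraries of the groups did not overlap for 9 of the 10, beside 74.7% of all tested genes. The median log2 fold change of the 10 genes was 0.13, beside 0.00071 for all tested genes. In these bulk samples, fewer cells of a type and less RNA per cell cannot be told apart.

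The Period genes encode repressors of CLOCK and BMAL1, and Per1 is also a well-known direct target of the glucocorticoid receptor. Listed by replicate number, as throughout, the normalized counts of Per1 were 3431, 3558 and 3503 for control animals, against 10385, 9666 and 9367 after dexamethasone. All dexamethasone libraries lay far above all control libraries, with dexamethasone replicate 1 the highest. The mean was 2.80 times that of controls, a log2 fold change of 1.49 (SE 0.040, n = 3 per group, limma adjusted p = 6.98e-21). Per2, the paralogue of Per1, had 791, 824 and 873 normalized counts in the controls and 961, 872 and 951 in the dexamethasone libraries. The groups overlapped, since dexamethasone replicate 2 lay just under control replicate 3. Per2 rose by a log2 fold change of 0.16 (SE 0.060, limma adjusted p = 0.0196), a call that was lost under 2 of the scalings and without any 1 of 3 libraries. Per3, the third Period gene, had 1044, 958 and 1089 normalized counts in the controls and 530.4, 622 and 584 in the dexamethasone libraries. Every dexamethasone library was below every control library, and the mean was 0.562 times that of controls. The log2 fold change of Per3 was -0.83 (SE 0.068, limma adjusted p = 5.82e-11).

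The cryptochromes Cry1 and Cry2 are the partners of the PER proteins in repression. Cry1 had 1628, 1720.2 and 1639 normalized counts in the controls and 1368, 1297 and 1326 in the dexamethasone libraries. The groups did not overlap, and Cry1 fell by 0.32 on the log2 scale (SE 0.048, limma adjusted p = 1.88e-06). Cry2 had 2408, 2279 and 2313 normalized counts in the controls and 1920.2, 1953 and 1787 in the dexamethasone libraries. All dexamethasone libraries were again the lower ones, and Cry2 fell by 0.31 (SE 0.046, limma adjusted p = 1.84e-06).

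Arntl and Clock encode the activator pair of the loop. Arntl had 2362, 2356 and 2296 normalized counts in the controls and 2520.2, 2470.0 and 2519 in the dexamethasone libraries. The groups lay close together without overlapping. The log2 fold change of Arntl was 0.098 (95% interval 0.014 to 0.18, limma adjusted p = 0.0343), and it turned to -0.016 with all libraries scaled to the same total and to -0.054 under quantile normalization. Its call was also lost in edgeR (adjusted p = 0.089), in DESeq2 (0.063), with no filter (0.0532) and in 5 of 6 fits without a library. Scaling to the same total moved the median of all genes to -0.11. This scaling shifts the log2 fold changes of all genes by about the same amount. The place of Arntl against that median therefore could not change and tells nothing about its call. Clock had 7458, 7401 and 7502 normalized counts in the controls and 8744, 8745 and 8383 in the dexamethasone libraries. All dexamethasone libraries were the higher ones, and Clock rose by 0.21 (SE 0.035, limma adjusted p = 7.89e-06), a difference that was -0.0012 under quantile normalization.

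Nr1d1 and Nr1d2 encode REV-ERB alpha and REV-ERB beta, the repressors of Bmal1 transcription. Nr1d1 had 3629, 3758 and 3810.3 normalized counts in the controls and 5143, 4822 and 4783 in the dexamethasone libraries. Nr1d2 had 4913, 5119 and 5077 in the controls and 6757, 7148 and 6748 in the dexamethasone libraries. Both genes were higher in every dexamethasone library than in any control library. Nr1d1 rose by 0.40 on the log2 scale (SE 0.039, limma adjusted p = 2.24e-09) and Nr1d2 by 0.45 (SE 0.037, limma adjusted p = 6.74e-11). Under quantile normalization Nr1d1 rose by only 0.23 and Nr1d2 by only 0.26. Dbp encodes a D-box activator that carries the rhythm of the loop to output genes. It had 220.3, 205 and 216 normalized counts in the controls and 123, 108 and 103 in the dexamethasone libraries. All dexamethasone libraries were lower, at a mean 0.521 times that of controls. The log2 fold change of Dbp was -0.94 (SE 0.12, 95% interval -1.19 to -0.69, limma adjusted p = 1.83e-07).

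**Figure D1:**
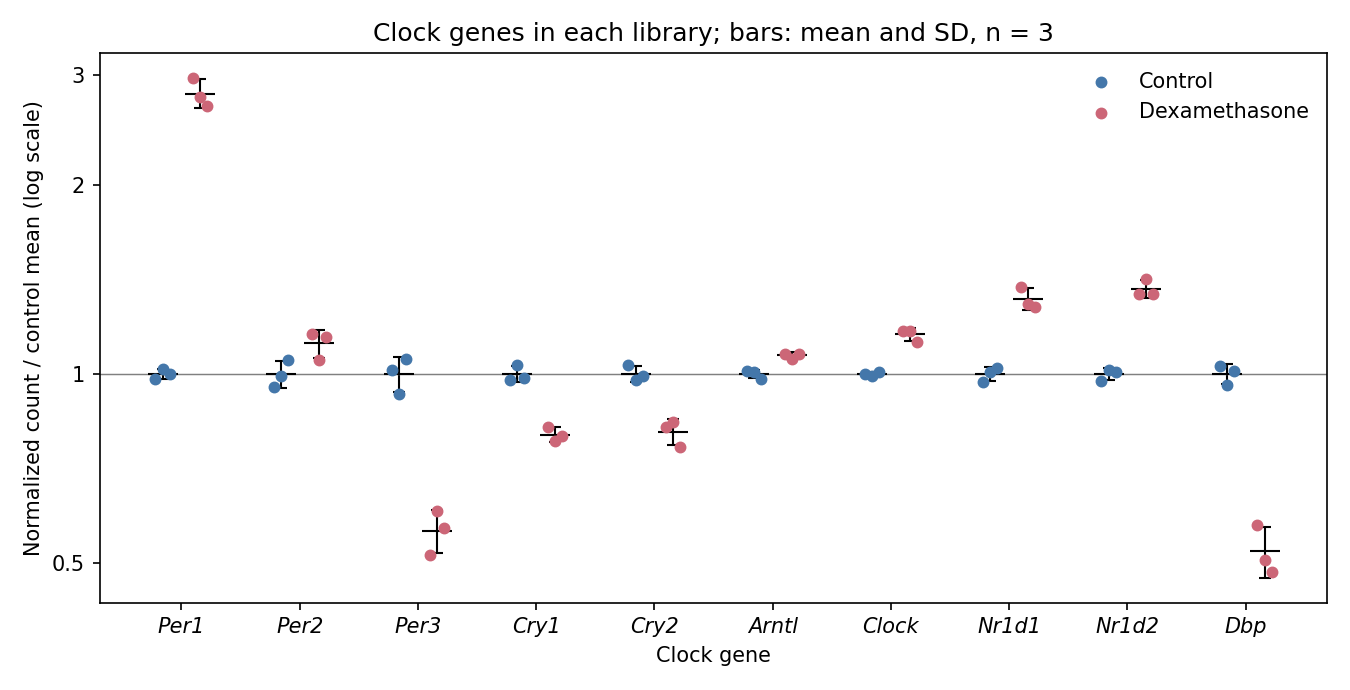
Normalized count of each clock gene in each library, divided by the mean of the control libraries, on a log axis; points are libraries, and bars give the mean and SD of 3 libraries. Per1 lies near 2.80 with dexamethasone, Per3 near 0.562 and Dbp near 0.521, while Arntl, whose direction turned under 2 of the scalings, lies near 1.07.

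Libraries of the same group were close to each other in these genes. The median SD on the log2 scale was 0.039 in controls and 0.063 with dexamethasone, beside 0.064 and 0.078 for all tested genes. The widest of the 10 with dexamethasone was Dbp, with an SD of 0.13, and its highest library was dexamethasone replicate 1.

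The ratio of a pair of well-expressed genes within a library depends little on how that library was scaled, since only the added 1 carries the scale, which matters for genes with few reads. For 3 against 3 libraries the smallest exact permutation p is 0.1, so no ratio could pass 0.05, and p-values were adjusted over the 7 ratios. The log2 ratio of Per1 to Per3 was 1.72, 1.89 and 1.69 in the controls and 4.29, 3.96 and 4.002 in the dexamethasone libraries. The groups were well apart, with a difference of 2.32 (exact two-sided permutation p = 0.1, adjusted 0.14). Per1 to Per2 differed by 1.32, Arntl to Dbp by 1.04 and Arntl to Nr1d1 by -0.30, each with groups apart and the same exact p of 0.1 (adjusted 0.14). Cry1 to Cry2 differed by -0.014 with overlapping groups (exact permutation p = 0.8, adjusted 0.8). Nr1d1 to Nr1d2 differed by -0.054, also with overlap (exact permutation p = 0.4, adjusted 0.467). Clock to Npas2 differed by 2.26 with the groups apart (exact permutation p = 0.1, adjusted 0.14), but it was 1.46 with a pseudocount of 5, and Npas2, a paralogue of Clock, had only 10 to 18 reads in a control library and 1 to 4 in a dexamethasone library.

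Levels of different genes can be set side by side only per length, here per kilobase of the longest coding transcript. In the controls the order by normalized counts per kilobase was Nr1d1 (1372 ± 34.3, SD), Nr1d2 (1080.0 ± 23.4), Arntl (786 ± 12.3), Clock (765 ± 5.18), Per1 (749 ± 13.6), Cry2 (587 ± 16.8), Cry1 (549 ± 16.7), Per3 (172 ± 11.1), Per2 (142 ± 7.01) and Dbp (117 ± 4.17), each with n = 3. Among neighbours in this order, Clock lay within 2 SD of both Arntl and Per1, so that part of the order is not resolved. Per kilobase of all exon bases of a gene the order was Nr1d1 (1213), Nr1d2 (931), Per1 (621), Clock (543), Cry1 (498), Cry2 (369), Arntl (311), Per2 (142), Per3 (107) and Dbp (71.5), so the places of Arntl, Per1, Cry1, Per2 and Per3 depend on the length used. With dexamethasone Per1 was the most abundant per kilobase (2099 ± 112), above Nr1d1 (1807 ± 72.5), and Dbp remained the least (60.7 ± 5.58).

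Some of these genes share exon bases with a gene on the opposite strand. The kit marked strand, but the strand setting of the count is not given in the sources used here, so reads of such pairs may not be separate. In the GENCODE M21 annotation, 18% of the exon bases of Dbp lay over Sphk2, 8.55% of those of Nr1d1 lay over Thra, 4.67% of those of Cry2 over D930015M05Rik, and 0.439% of those of Arntl over Gm45355, which was not tested. These neighbours were looked up because of that overlap. Thra itself fell by 1.35 on the log2 scale, opposite to Nr1d1 (limma adjusted p = 2.23e-19), and Sphk2 fell by 0.32, the same direction as Dbp (limma adjusted p = 2.54e-06). D930015M05Rik fell by 0.55, the same direction as Cry2 (limma adjusted p = 0.0176).

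Of 11 further clock transcription factors, 7 were tested. Among them 1 was differentially expressed and higher, beside 11.7% of all tested genes, and 1 was differentially expressed and lower, beside 10.6%. At an adjusted p under 0.05 alone 3 rose, beside 37.2%, and 4 fell, beside 35.2%. Their median log2 fold change was -0.57. Nfil3 encodes E4BP4, a repressor that competes with DBP at D-boxes. It had 1931, 2006 and 1851 normalized counts in the controls and 672, 609 and 603 in the dexamethasone libraries. The groups were far apart, and the log2 fold change was -1.62 (SE 0.056, limma adjusted p = 1.94e-18). Bhlhe40 encodes DEC1, a repressor of CLOCK and BMAL1 activity. It had 5802, 6327 and 5505 normalized counts in the controls and 16012, 14754 and 14867 in the dexamethasone libraries. Every dexamethasone library was the higher, at 2.59 times the control mean, with a log2 fold change of 1.37 (SE 0.044, limma adjusted p = 3.46e-19). Its paralogue Bhlhe41 fell by 0.60, Rora, an activator of Bmal1, fell by 0.78, and Tef, a D-box activator related to Dbp, fell by 0.57. Arntl2 rose by 0.23. Ciart rose by 0.26, a call lost at the same total (0.15), in limma without trend (adjusted p = 0.0645) and without control replicate 2 (0.16, adjusted p = 0.143). Npas2, Rorb and Hlf were among the 4 with too few reads to be tested.

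All 17 kinases, ubiquitin ligases and partners of the clock proteins were tested. Among them 1 was differentially expressed and higher, beside 11.7% of all tested genes. At an adjusted p under 0.05 alone 13 rose, beside 37.2%, and 2 fell, beside 35.2%, with a median log2 fold change of 0.32. Timeless, a protein of the replication fork that is also a partner of clock proteins, had 702, 739 and 727 normalized counts in the controls and 5053, 4454 and 4529 in the dexamethasone libraries. The mean was 6.48 times that of controls, the largest change in this list, with a log2 fold change of 2.69 (SE 0.050, limma adjusted p = 4.42e-24). Gsk3b, a kinase of several clock proteins, fell by 0.18. Of the genes that rose, Csnk2a1, Csnk2a2 and Btrc were at -0.057, -0.0057 and -0.030 under quantile normalization. The casein kinases Csnk1d and Csnk1e, which phosphorylate PER proteins, rose by 0.26 and 0.33, and Csnk1d lost its call under quantile normalization (0.048, adjusted p = 0.117).

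Of 6 clock outputs, 2 were differentially expressed and higher, beside 11.7% of all tested genes. At an adjusted p under 0.05 alone 4 rose, beside 37.2%, and 1 fell, beside 35.2%, with a median log2 fold change of 0.41. Wee1, a kinase that holds back entry into mitosis, had 3350.0, 3503 and 3525 normalized counts in the controls and 9011, 8838 and 8683 in the dexamethasone libraries. All dexamethasone libraries were the higher, with a log2 fold change of 1.35 (SE 0.037, limma adjusted p = 9.56e-21). Noct rose by 0.65, Nampt rose by 0.17 but was at -0.021 under quantile normalization, and Cdkn1a, an inhibitor of the cell cycle, fell by 0.73.

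**Figure D2:**
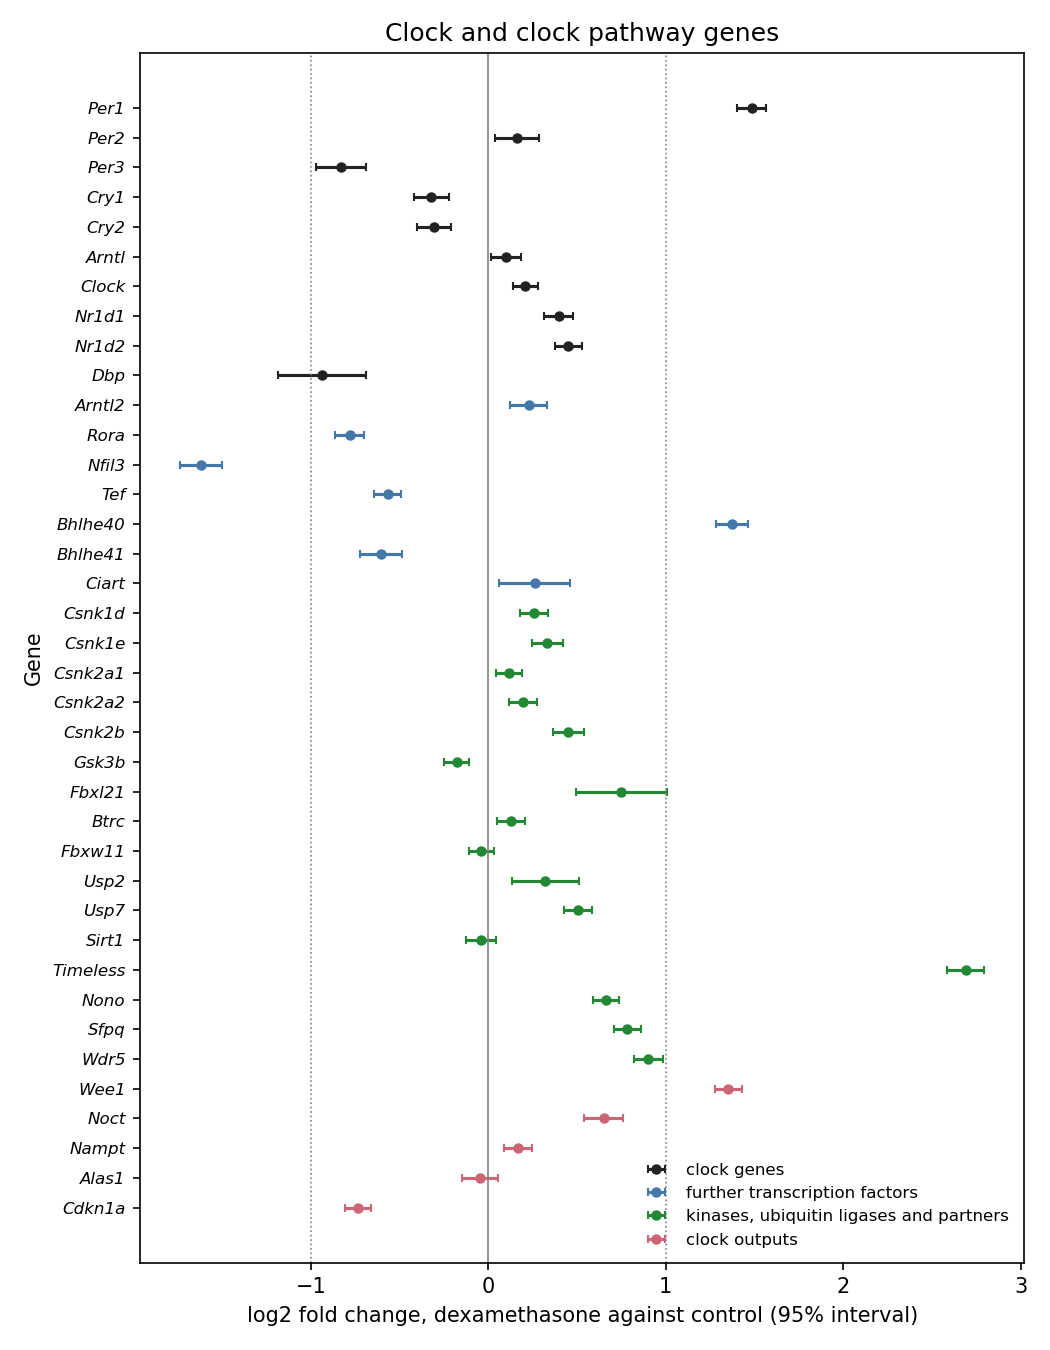
Log2 fold change (dexamethasone against control, horizontal axis) with its 95% interval for tested clock and clock pathway genes; dotted lines mark a log2 fold change of 1 in either direction. Timeless (2.69), Per1 (1.49), Bhlhe40 (1.37) and Wee1 (1.35) lie beyond the upper line and Nfil3 (-1.62) beyond the lower one; Arntl, Clock, Csnk2a1, Csnk2a2, Btrc and Nampt turn direction under quantile normalization.

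Genes of dividing cells moved with these results. All 7 of 7 such markers were differentially expressed and higher, beside 11.7% of all tested genes. The summed level of these markers was 34603, 34922 and 37050.0 normalized counts in the controls and 222160, 217720 and 207270 in the dexamethasone libraries. The most abundant was Mki67, and the median log2 fold change was 2.697, close to that of Timeless. Their part in the changes of Timeless, Wee1 and the clock genes was not tested. Osteoblast markers moved too. Of these 9, 8 were differentially expressed and lower (10.6% of all tested genes) and 1, Spp1, was differentially expressed and higher (11.7%). Their summed level was 2008900, 2116300 and 2137600 in the controls, where Col1a2 was the most abundant gene, and 2136500, 2005000 and 2053200 in the dexamethasone libraries, where Spp1 was. The sums lay close together because Spp1, at 38.1 times its control mean, stood against the 8 genes that were lower. Bglap, which encodes Osteocalcin, had 98.2, 102 and 122 normalized counts in the controls and 9.54, 11.99 and 15.1 in the dexamethasone libraries. Bglap2, which also encodes Osteocalcin, had more, with 338.8, 332.7 and 299.7 in the controls and 29.6, 30.5 and 33.7 in the dexamethasone libraries. The part of the osteoblast genes was not tested.

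Markers of other cell types differed widely in level. Beside the counts below, 11.7% of all tested genes were differentially expressed and higher and 10.6% were differentially expressed and lower. At an adjusted p under 0.05 alone, 37.2% of all tested genes rose and 35.2% fell. Of 11 blood cell markers, 7 were tested, 2 were differentially expressed and higher and 2 lower, with a summed level of 835, 844 and 814 in the controls and 1620, 1598 and 1790 in the dexamethasone libraries. S100a9 was the most abundant of them, and the defining gene Ptprc had 2 to 5 reads per library. The higher ones were Cd53, with a mean of 15.7 in controls and 283 with dexamethasone (log2 fold change 4.11), and Itgb2, with 54.6 and 503.5 (log2 fold change 3.20). The lower ones were Laptm5 (log2 fold change -1.49) and Coro1a (-1.77). At an adjusted p under 0.05 alone, S100a8 rose by 0.87, with a mean of 153.7 in controls and 282.9 with dexamethasone, and Csf1r fell by 0.67. Of 7 endothelial markers, 4 were tested and 2 rose, Kdr by 0.25 and Pecam1, which encodes CD31, by 0.74 (limma adjusted p = 0.0419, 11 to 31 reads per library). Their sum was 377, 382 and 413 in the controls and 487, 458 and 455 in the dexamethasone libraries, mostly Kdr, while Cdh5 and Tie1 had 0 to 3 reads per library. Muscle markers summed to 71.6, 79.3 and 63.3 in the controls and 73.4, 55.6 and 60.5 in the dexamethasone libraries, with 3 of 5 tested, 1 differentially expressed and lower, Acta1 the most abundant in controls and Mylpf with dexamethasone, and Myh4 at 0 or 1 read. Of 4 adipocyte markers 1 was tested, Fabp4, which was differentially expressed and higher. Their sums were 11.9, 7.83 and 9.67 in the controls, where Adipoq had the highest mean, and 1417, 1411 and 1524 in the dexamethasone libraries, where Fabp4 did. Adipoq had 1 to 9 reads per library and Plin1 had 0 to 6. Of 4 chondrocyte markers 1 was tested, Col2a1, which was differentially expressed and higher, with sums of 1497, 1524 and 1541 in the controls and 6184, 5433 and 5455 in the dexamethasone libraries, while Acan had 0 to 6 reads. The part of these cell types in the clock gene results was not tested.

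Known targets of the glucocorticoid receptor were measured as a check of the treatment. Fkbp5 had 1829, 1897 and 1838 normalized counts in the controls and 42453, 37715 and 38299 in the dexamethasone libraries, without overlap. Its log2 fold change was 4.41 and that of Tsc22d3, which encodes GILZ, was 1.65. Nr3c1, the receptor itself, fell by 0.92, and was differentially expressed at the same total (-1.04) and under quantile normalization (-1.12).

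For 4 clock genes the tested genes with the most similar profile over the 6 libraries were sought among 11923 others with a mean of at least 100, by the root mean square difference of log2 values centred on the control mean. With 2 groups this measure depends largely on the size of the change, and shared regulation was not tested. Nearest to Per1 were Rassf8 (0.0213), H2afx (0.0253) and Nectin1 (0.0311). Their log2 fold changes were 1.48, 1.51 and 1.47, beside 1.49 for Per1. Nearest to Nr1d1 were Ino80e (0.00395), Cab39 (0.0084) and Prrc2a (0.0121). Nearest to Arntl were Resf1 (0.013), Dynlt3 (0.0137) and Snx12 (0.0144), and nearest to Dbp were Baz2b (0.0444), Mab21l3 (0.0485) and Gpc4 (0.0525).

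Promoter sequences, from 250 bases before to 50 bases after the start of a gene, were matched for 9 of the 10 genes in RefSeq (build GRCm38.p6), with 13 promoters in all; Per2 was not matched. Both strands were searched for 7 kinds of motif. The E-box CACGTG, the site of CLOCK and BMAL1, was found in 2 of the 13 promoters, beside 7.15% of all 32851 promoters. These were 1 of the 2 promoters of Per1 and that of Cry1. Its variant CACGTT was found in Cry1, Cry2 and Nr1d1 (3 of the 13 promoters), beside 4.68%. The D-box TTANGTAA, read by DBP, TEF and E4BP4, was found in Per3 alone of the 9 (1 of the 13 promoters), at 2 places, beside 2.32%. A loose spelling of the ROR element, TNGGTCA with any base at N, was found in Per3, Cry2 and Arntl (4 of the 13 promoters), beside 11%. Before the gene start these matches read TTGGTCA or TCGGTCA, with neither A nor G at N. The cAMP response element TGACGTCA (1.79% of promoters), the shorter glucocorticoid core AGAACA (19%) and the palindromic glucocorticoid response element that pairs 2 such cores (0.00913%) were found in none of the 13 windows. A match describes letters, not a bound site, and no match says only that these letters are not in this window. The stretches around the matches in Per1, which had the largest change of the 10, and in Per3, Cry1 and Cry2, which fell, are shown 5′ to 3′ on the strand of the gene, with matches to these motifs on either strand in capitals. They lie before the gene start at chr11:69098768-69098803 (plus strand), chr4:151044762-151044885 (minus), chr10:85185094-85185148 (minus) and chr2:92434181-92434250 (minus).
Per1: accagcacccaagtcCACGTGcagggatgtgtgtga
Per3: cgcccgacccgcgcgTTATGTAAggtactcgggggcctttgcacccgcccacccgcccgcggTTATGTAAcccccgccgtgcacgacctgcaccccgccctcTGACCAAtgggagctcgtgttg
Cry1: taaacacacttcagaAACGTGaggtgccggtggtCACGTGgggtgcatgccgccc
Cry2: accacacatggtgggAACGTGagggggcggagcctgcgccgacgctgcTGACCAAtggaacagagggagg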

How the data were processed

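Per the labels, total RNA was made into libraries with a stranded mRNA kit. The deposited signal values are reads per gene, counted by the authors with STAR (2.7.10a, build GRCm39 in the submitters' processing notes) and divided by DESeq2 (1.36.0) size factors. Dividing by the value of 1 read gave whole reads for 100% of values above 0 (tolerance 0.01 read). Symbols came from GENCODE M21 for 28087 of 29616 genes. Genes with a mean of at least 10 were compared as log2(value + 1) with limma (3.58.1, R 4.3.3, mean-variance trend) and Benjamini-Hochberg adjustment; the added 1 understates fold changes of genes with few reads. As alternatives, the recovered reads were tested in edgeR (4.0.16), which called 3944 genes, and in DESeq2 (1.42.0), which called 3870 genes, and all 3 tools were tested on simulated data. Ratios were compared with an exact two-sided permutation test. Nothing beyond the labels' word for biological replicates says that the libraries came from separate animals, so p-values measure only the spread between these samples. The members and lists were chosen with earlier results of these data known. Named genes were the 10 members, every differentially expressed gene of the further lists with others needed for background, the treatment check, abundant and defining markers, and 3 nearest profiles for each of 4 genes. Some members of the further lists enter the counts but are not reported here.

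In all, 10 motif spellings were searched in the promoters. The 7 kinds in the report were planned, although their letters were not recorded before the promoters of these genes had been seen, and 3 spellings were added after that. Those 3 were the D-box spellings TTATGTAA (found in Per3, 0.938% of all promoters) and TTATGCAA (found in Per1, 0.743%), and the cAMP response core TGACG (found in Per1, Cry1 and Cry2, 20.8%). They are not counted among the results.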

Additional observations from a re-analysis of the deposited data

How the results depend on the processing

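Across 17 alternative fits, 152 of 170 values of the 10 clock genes kept their direction and side of the adjusted p threshold, and Per1 was called in all 17. Dbp became differentially expressed with libraries scaled to the same total and without dexamethasone replicate 1 (-1.01), which gave 2 clock genes called, 1 of them lower; leaving out single libraries gave 1 to 2 called and 0 to 1 lower. At an adjusted p under 0.05 alone 10 were called (6 higher, 4 lower), with 27 further genes (20 higher, 7 lower) and 12645 of all genes (6497 higher, 6148 lower). A mean of at least 100 gave 2170 of all genes (1350 higher, 820 lower), from fewer genes tested, against 3894 in the report. With no filter 7 further genes were called and 2 of them were lower, with Npas2 (-2.05) and Hlf (1.92) added. Per2 lost its call at the same total (0.048, adjusted p = 0.438), under quantile normalization (0.10), in limma without trend (0.16) and without control replicate 1 or dexamethasone replicate 1 or 3 (leave-out range 0.13 to 0.21); its adjusted p ranged from 0.00532 to 0.438. Arntl lost it with no filter (0.098), in edgeR (0.072) and DESeq2 (0.089), and in 5 of 6 fits without a library, all but dexamethasone replicate 2 (0.085 to 0.11); it reversed at the same total (-0.016) and under quantile normalization (-0.054), and its adjusted p ranged from 0.0133 to 0.698. Under quantile normalization Clock (-0.0012), Csnk2a1 (-0.057), Csnk2a2 (-0.0057), Btrc (-0.030) and Nampt (-0.021) also reversed, and Csnk1d lost its call. At the deposited scaling Alas1 ranged from -0.10 to 0.025 without single libraries. At the same total Ciart, Csnk2a1, Btrc, Usp2 and Nampt lost their calls, while Fbxw11 (-0.15), Sirt1 (-0.16) and Alas1 (-0.16) fell there and under quantile normalization (-0.22, -0.19 and -0.20). The ratio of Cry1 to Cry2 ranged from -0.052 to 0.029 without single libraries, turning without control replicate 2 or dexamethasone replicate 2, and Clock to Npas2 was 1.46 with a pseudocount of 5. Restricting the search to the 250 bases before the start gave the same motif counts; the cAMP response core, chosen after seeing the data, was found in 3 genes against 0 for the full element. The cause of these changes was not tested. Replicate numbers did not pair the libraries (correlations of deviations -0.0999, -0.105 and -0.0199); with a replicate block 3897 genes were called, and of the clock genes only Arntl lost its call (0.098, adjusted p = 0.095). Depth limits Npas2, Rorb and Hlf.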
